A study of Mus musculus with 31 samples.

Results

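The motile cilia genes described here are 38 genes that encode the moving machinery of airway cilia or switch it on. They were taken from a fixed list of gene symbols that sets no cut-off on measured values. The list was chosen with earlier results of these data known. All 38 were measured, out of 19939 genes named on the arrays. Each gene is represented by the probe set (the group of probes that report one transcript) with the highest mean among those that carry only its symbol. Their levels are log2 intensities, with differences given on the same log2 scale, and the levels of different genes cannot be set against each other.

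Whole lungs of male AKR and C57 BL/6 (C57 below) mice, all labelled 6 wk old, were measured on 31 arrays. Mice breathed room air or cigarette smoke, and most then received lipopolysaccharide (LPS, a bacterial cell wall component that provokes acute inflammation) in normal saline, or normal saline alone, into the trachea. In each strain, 4 groups are air with saline, smoke with saline, air with LPS and smoke with LPS, of 3 arrays each except 2 for AKR smoke with LPS. Mice with no instillation are C57 titled 6 weeks of room air (3 arrays), AKR titled 6 weeks (3 arrays) and AKR titled 3 weeks (2 arrays). The titles give 3 weeks of exposure for the instilled mice while the series' design text gives 6 weeks, so the exposure time is uncertain. The titles call the arrays of a group biological replicates, and each is given below by its number in the title.

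Motile cilia are hair-like projections of multiciliated cells in the airway lining, which beat together to carry mucus out of the lung. Their core, the axoneme, is a ring of doublet microtubules around a central pair. Outer and inner dynein arms are the motors that slide the doublets, radial spokes and the central pair regulate the stroke, and Foxj1 and Rfx3 are transcription factors that turn on the genes. RFX proteins bind the X-box, a nearly palindromic sequence found before many cilia genes.

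X-box letters stand close to the start of several members, and these sites are shown as description. Whether holding a site goes with a member's differences in the comparisons that follow was not tested. RefSeq promoter windows (mouse build GRCm38.p6, 250 bases before to 50 after a gene's start) were found for 31 of the 38 members, in 35 windows. The motif searched was GTTNCC, any 2 bases, then GGNAAC, which reads the same on both strands, with at most 1 mismatch at a position other than N. It was present in 10 of the 35 windows (28.6%), of 9 genes, against 2.56% of all 32851 windows. None of the members' windows held it without a mismatch. Windows of the other cilia gene lists used below also held it often. The share was 21.6% for axoneme genes, 21.1% for dynein arm genes, 16.1% for intraflagellar transport genes and 13.3% for regulators. The motif's single arm GTTGCC, on either strand and overlapping the motif, was in 54.3% of the members' windows and 12.5% of all windows. In the other cilia lists its share ran from 37.8% to 52.6%. The forkhead motif GTAAACA, on either strand, was in 2.86% of the members' windows and 3.65% of all. Below are the sites of 6 of the 9 genes, those with the lowest log2 difference after smoke and LPS in AKR, 5′ to 3′ on the gene's strand, with the X-box match in capitals and up to 40 bases on each side, ending at the gene's start or at the end of a site that crosses it.
Hydin: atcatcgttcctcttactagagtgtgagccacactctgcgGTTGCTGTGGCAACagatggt
Lrriq1: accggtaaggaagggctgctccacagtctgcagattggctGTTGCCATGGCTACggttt
Enkur: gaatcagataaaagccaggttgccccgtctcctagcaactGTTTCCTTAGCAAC
Zmynd10: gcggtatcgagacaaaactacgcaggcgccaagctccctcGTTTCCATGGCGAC
Ccdc113: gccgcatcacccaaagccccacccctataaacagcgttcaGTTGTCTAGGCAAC
Tekt4: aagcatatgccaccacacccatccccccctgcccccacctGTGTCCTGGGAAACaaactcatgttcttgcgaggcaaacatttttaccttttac

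The Hydin stretch lies at chr8:110266916-110266976 on the plus strand, and its site begins 21 bases before the gene's start. Lrriq1 lies at chr10:103236323-103236381 on the minus strand, with the site 19 bases before the start. Enkur lies at chr2:21205364-21205417 on the minus strand, with the site 12 bases before the start. In Zmynd10, at chr9:107547264-107547317 on the plus strand, the site begins at the start itself. Ccdc113 lies at chr8:95534046-95534099 on the plus strand, with the site 14 bases before the start. Tekt4 lies at chr17:25471390-25471483 on the plus strand, and its site, 160 bases before the start, is the farthest of the 6. In 5 of the 6 the site thus lies within 21 bases of the start. A match is a run of letters and does not show that an RFX protein binds there.

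All 38 members were among the 14705 genes tested, which exceeded percentile 40 of their array on 3 or more arrays, and 34 did so on all 31 arrays. Spag16, Efhc2, Armc4 and Ropn1l were dimmer and passed that level on 16, 7, 28 and 22 arrays. As markers of lung, Sftpc, a surfactant protein gene of alveolar type 2 cells, and Scgb1a1, a secretoglobin gene of club cells, were at or above percentile 99.7 on each array. A pair of C57 arrays goes against its labels. Saa3, an acute-phase gene induced by LPS, was at 12.47 on the array labelled C57 smoke with saline 3 and at 6.06 on the array labelled C57 smoke with LPS 3, where the other C57 arrays given LPS lay from 12.38 to 12.85. Results that rest on these arrays are given with and without the pair. The arrays also fall into sets by distribution, 18 with medians from 6.96 to 7.1 (all C57 arrays and AKR room air 6 weeks) and 13 with medians from 6.8 to 6.9 (the other AKR arrays). Strain and set therefore cannot be told apart for the instilled mice.

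The mean level of the 38 genes on an array, each gene taken relative to its own mean over the 31 arrays, was highest in AKR mice given saline and lowest in AKR mice given smoke and LPS. It was 0.40, 0.15 and 1.07 on the arrays of AKR air with saline and 0.79, 0.53 and 0.20 on those of AKR smoke with saline. On the AKR arrays given air and LPS it was 0.27, -0.58 and 0.26, and on both given smoke and LPS it was -0.56 and -0.86. The AKR saline arrays all lay above 0, the arrays after smoke and LPS lay well below them, and the arrays after air and LPS were split, 1 of them low.

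In C57 mice the range was narrower. The mean level was 0.04, 0.23 and 0.02 after air and saline, and -0.47, -0.48 and -0.23 after air and LPS. In C57 mice that had room air alone it was -0.16, 0.41 and 0.51. It was -0.19, 0.17 and -0.27 after smoke and saline and -0.42, -0.47 and -0.04 after smoke and LPS, where the third value of each is the array whose label is in doubt. Each C57 air with LPS array lay below each C57 air with saline array, and without the doubted pair the same held after smoke. AKR mice in room air alone lay between the AKR extremes, at 0.05, 0.25 and -0.39 for 6 weeks and 0.09 and -0.33 for 3 weeks.

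**Figure D1:**
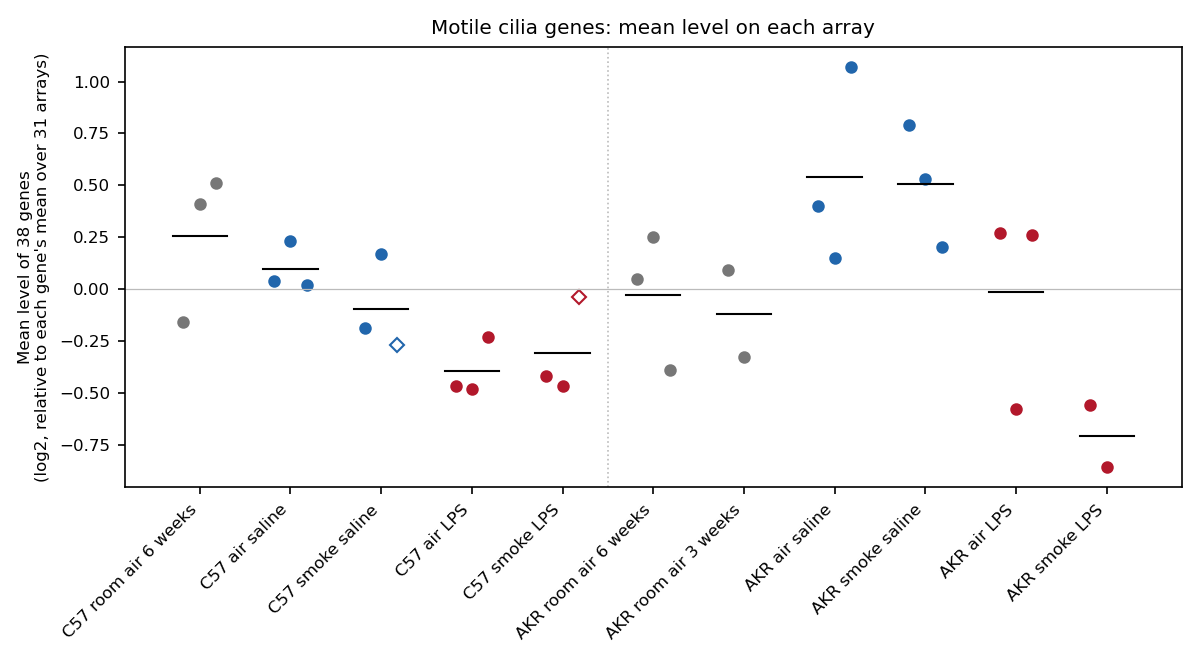
Mean level of the 38 motile cilia genes on each of the 31 arrays (y axis, log2, each gene relative to its mean over all arrays), by group (x axis). Each point is an array (grey for room air alone, blue for saline, red for LPS), black lines are group means, and open diamonds are the pair of C57 arrays whose labels are in doubt. AKR saline arrays lie between 0.15 and 1.07, and both AKR arrays after smoke and LPS lie at -0.56 and -0.86.

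The members moved up and down together within groups. On the array AKR air with saline 3, all 38 lay above their group mean, where 44.8% of all genes tested did, and on AKR air with LPS 2, 0 of 38 did, against 57.9% of all genes. The spread of their mean level between arrays of a group was an SD of 0.316, pooled over the 11 groups. The same SD was 0.364 for 10 markers of club cells, the secretory cells that share the airway lining, 0.734 for 11 heart muscle markers and 0.139 for 11 markers of alveolar type 2 cells. On AKR air with saline 3 the club cell markers were at 0.87 and the heart muscle markers at 1.43, in each case the highest array of that group. Saa3 was at 8.95 on it, against 6.22 and 6.38 on the other AKR arrays after air and saline. How much airway tissue each lung sample held was not measured, and its part in these levels was not tested. In whole lung, fewer ciliated cells and less RNA per ciliated cell cannot be told apart, and this holds for every result below.

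**Figure D2:**
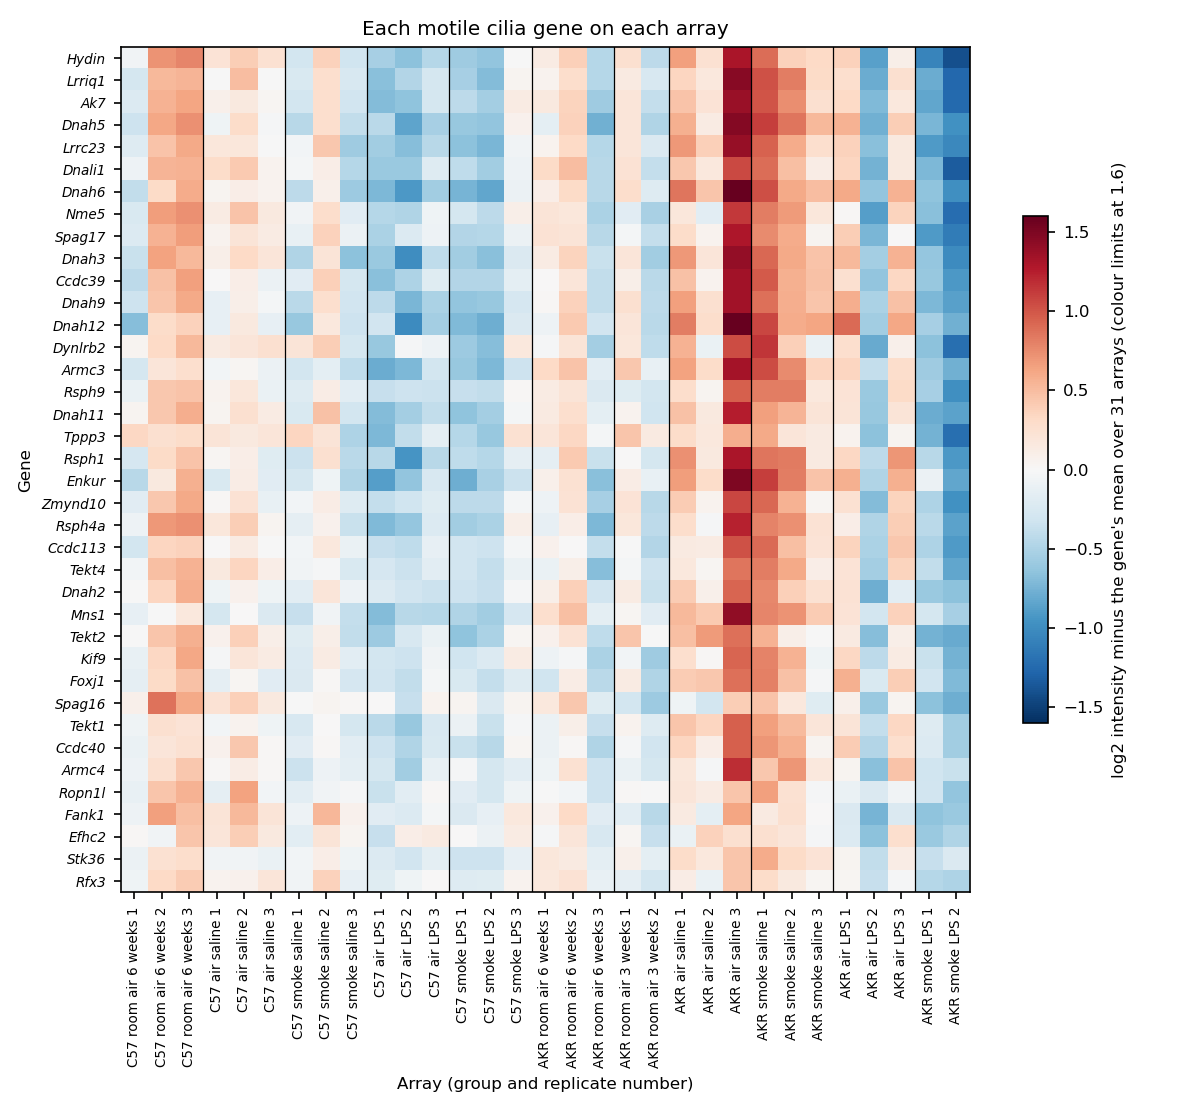
Level of each of the 38 genes (rows) on each of the 31 arrays (columns, by group), as log2 relative to the gene's mean over all arrays. Rows run from the largest to the smallest fall after smoke and LPS in AKR. Whole columns share a colour: AKR air with saline 3 is above the gene's mean in 38 of 38 rows, and AKR smoke with LPS 2 in 0 of 38.

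LPS in AKR mice that had breathed smoke gave the broadest difference. Against smoke with saline, all 38 members fell at an adjusted p under 0.05 (limma, Benjamini-Hochberg over 14705 genes, 2 arrays against 3), where 14.6% of all genes tested fell. The median log2 difference of the members was -1.27, against 0 over all genes tested, and it ran from -1.76 for Hydin to -0.63 for Rfx3. The arrays of both groups did not overlap for any of the 38, which held in the lower direction for 28.7% of all genes. Without AKR smoke with LPS 2, the lowest array, 19 of the 38 passed, against 6.31% of all genes, with a median of -1.06, in a fit in which the lone remaining array is assumed to vary like those of other groups.

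Among the switch genes, Foxj1, the master regulator of motile cilia, was at 9.69, 9.36 and 8.87 after smoke and saline and at 8.58 and 8.18 after smoke and LPS. The groups did not overlap, and the log2 difference was -0.92 ± 0.25 (SE, limma adjusted p = 0.0074), to 52.8% of the saline level. Rfx3 was at 8.33, 8.20 and 8.07 against 7.59 and 7.55, with both LPS arrays below every other AKR array. Its difference, -0.63 ± 0.17 (limma adjusted p = 0.0064), was the smallest of the 38.

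**Figure D3:**
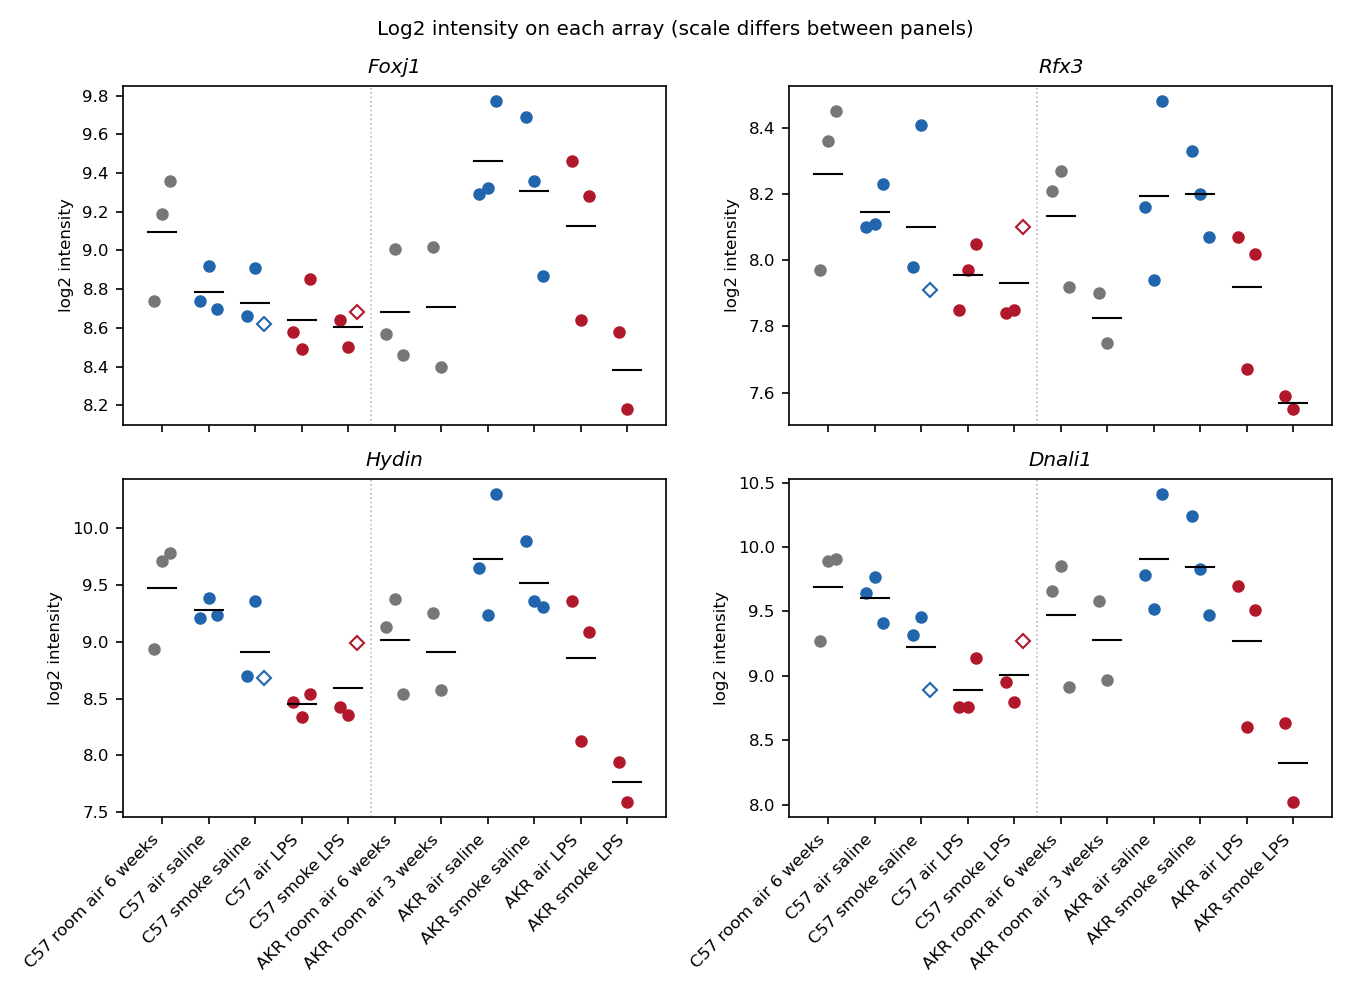
Log2 intensity (y axis, scale differs between panels) of Foxj1, Rfx3, the central pair gene Hydin and the inner arm gene Dnali1 on each array, by group (x axis). Points are arrays, coloured as for the mean level, lines are group means and open diamonds the doubted C57 pair. In each panel both AKR arrays after smoke and LPS (Hydin 7.94 and 7.59, Dnali1 8.63 and 8.02) lie below the 3 after smoke and saline.

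Of the outer arm, which supplies most of the power of the beat, Dnah5, a heavy chain whose loss causes primary ciliary dyskinesia, was at 10.15, 9.90 and 9.57 after smoke and saline and at 8.32 and 8.08 after smoke and LPS. That is a log2 difference of -1.68 ± 0.41 (limma adjusted p = 0.0032). The other outer arm heavy chains, Dnah9 (-1.43) and Dnah11 (-1.30), fell by similar amounts. Armc4, part of the complex that docks outer arms on the doublet, fell less, by 0.77 on the log2 scale, and Zmynd10, which helps preassemble dynein arms in the cytoplasm, fell by 1.24. The fall of Armc4 passed in only 6 of 14 other settings of the analysis, with log2 differences from -0.9 to -0.63. Its second, dimmer probe set averaged 6.23 after smoke and saline and 5.52 after smoke and LPS.

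Inner arm genes shape the waveform of the beat. Dnali1, a light intermediate chain, was at 10.24, 9.83 and 9.47 after smoke and saline and at 8.63 and 8.02 after smoke and LPS, a difference of -1.52 ± 0.33 (limma adjusted p = 0.0015). The heavy chains Dnah6 (-1.52), Dnah3 (-1.48) and Dnah12 (-1.42) fell about as much and Dnah2 (-1.09) less. Dnah3, Dnah6 and Dnah12 have several probe sets each, and every one of them was lower on average after LPS here. Ccdc39 and Ccdc40 form the ruler that sets the spacing of inner arms and spokes along the doublet, and they fell by 1.44 and 0.83.

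Central pair and spoke genes held the lowest value of the comparison. Hydin, a giant central pair protein, was at 9.89, 9.36 and 9.31 after smoke and saline and at 7.94 and 7.59 after smoke and LPS, to 29.5% of the saline level (log2 difference -1.76 ± 0.34, limma adjusted p = 0.00065). Spag17 (-1.48), Kif9 (-0.99), Spag16 (-0.86) and Stk36 (-0.68), which also serve the central pair, fell less. Of the spoke head genes, Rsph9 was at 9.34, 9.34 and 8.69 against 7.99 and 7.54 (-1.36 ± 0.26, limma adjusted p = 0.00056), and Rsph1 and Rsph4a fell by 1.29 and 1.23. Of the other spoke genes, Lrrc23 (-1.57), Nme5 (-1.50) and Ropn1l (-0.76) differed more among themselves.

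The remaining members include tektins, filament proteins inside the doublets, of which Tekt4, Tekt2 and Tekt1 fell by 1.12, 0.99 and 0.83. Ak7, an adenylate kinase of the axoneme, was at 10.37, 10.10 and 9.61 after smoke and saline and at 8.53 and 8.12 after smoke and LPS, to 30.7% (-1.70 ± 0.35, limma adjusted p = 0.001). Lrriq1, whose role is less defined, was at 8.84, 8.65 and 8.13 against 7.03 and 6.57 (-1.75 ± 0.36, limma adjusted p = 0.001). Tppp3, a microtubule-associated protein, was at 12.43, 12.02 and 11.96 against 11.07 and 10.62 (-1.29 ± 0.25, limma adjusted p = 0.00069). For each of these genes the LPS arrays lay below all saline arrays of the comparison.

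The smallest differences besides that of Rfx3 were those of Stk36, Efhc2 and Fank1. Stk36 was at 8.31, 8.02 and 7.93 after smoke and saline and at 7.34 and 7.48 after smoke and LPS (-0.68 ± 0.15, limma adjusted p = 0.0013). Efhc2 was at 6.41, 6.35 and 6.14 against 5.56 and 5.67 (-0.68 ± 0.21, limma adjusted p = 0.018). Fank1 was at 7.24, 7.35 and 7.1 against 6.45 and 6.5 (-0.75 ± 0.23, limma adjusted p = 0.014). In all 3 genes the LPS arrays again lay below all saline arrays. Efhc2 had the lowest mean intensity of the 38 and was above the 40th percentile on 7 of 31 arrays.

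LPS in AKR mice that had breathed air gave a smaller and less even difference. All 38 members had a value below 0, with a median of -0.57 against -0.04 over all genes, and 7 fell (Lrrc23, Tekt2, Dnah2, Mns1, Fank1, Tekt1 and Stk36), or 18.4% of the members against 7.41% of all genes. Of the 38, 8 had groups that did not overlap in the lower direction, against 17.2% of all genes. The count rests on single arrays: 0 of 38 fell without AKR air with LPS 2 (median -0.25; 3.54% of all genes) or without AKR air with saline 3 (5.54% of all genes). It was 2 without AKR air with saline 1 (4.15%) and 11 without AKR air with saline 2 (6.36%). It was also 11 without the doubted C57 pair (10.8% of all genes), which enters through the shared estimate of spread.

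Tekt2 had the lowest adjusted p of the 7 genes. It was at 7.99, 8.19 and 8.39 after air and saline and at 7.66, 6.83 and 7.60 after air and LPS (-0.83 ± 0.23, limma adjusted p = 0.014), and the groups did not overlap. Lrrc23 was at 8.74, 8.42 and 9.44 against 8.41, 7.37 and 8.20 (-0.87 ± 0.30, limma adjusted p = 0.045), where the highest LPS array lay just under the lowest saline array. Mns1, a filament-like protein of the doublet lumen, was at 7.96, 7.87 and 8.86 against 7.67, 7.15 and 7.82 (-0.68 ± 0.21, limma adjusted p = 0.026). In all 3 genes AKR air with LPS 2 was the lowest array.

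Dnah2 was at 8.08, 7.75 and 8.60 after air and saline and at 7.91, 6.89 and 7.51 after air and LPS (-0.71 ± 0.23, limma adjusted p = 0.034), with 1 LPS array inside the saline range. Fank1, of less defined function, was at 7.24, 6.94 and 7.73 against 6.86, 6.35 and 6.86 (-0.62 ± 0.20, limma adjusted p = 0.038). Tekt1 was at 7.99, 7.89 and 8.50 against 7.76, 7.17 and 7.88 (-0.52 ± 0.18, limma adjusted p = 0.048). Stk36, a kinase needed to build the central pair, was at 8.0, 7.88 and 8.15 against 7.75, 7.32 and 7.83 (-0.38 ± 0.13, limma adjusted p = 0.047). The groups were apart for the last 3 genes, if narrowly for Tekt1.

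Hydin was at 9.65, 9.24 and 10.30 against 9.36, 8.13 and 9.09, an equally low difference of -0.87 ± 0.31 that did not pass (limma adjusted p = 0.054). Foxj1 was at 9.29, 9.32 and 9.77 against 9.46, 8.64 and 9.28 (-0.33 ± 0.22, limma adjusted p = 0.33) and Rfx3 at 8.16, 7.94 and 8.48 against 8.07, 7.67 and 8.02 (-0.27 ± 0.15, limma adjusted p = 0.23). Both transcription factors overlapped between the groups. Across the 38 genes, the differences after air and after smoke in AKR, which share no arrays, had a Pearson r of 0.66 and a Spearman rho of 0.68. This describes genes that share the same arrays and are not independent replicates.

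In C57 mice that had breathed air, LPS gave values below 0 for all 38 members with a median of -0.48 against -0.01 over all genes. By limma, 0 of 38 passed, where 4.3% of all genes fell, and 13 were lower at an unadjusted p under 0.05, against 12% of all genes. The groups did not overlap for 36 of 38 in the lower direction, against 17.1% of all genes. Dnah3 was at 10.68, 10.90 and 10.78 after saline and at 9.99, 9.59 and 10.18 after LPS (-0.87 ± 0.32, limma adjusted p = 0.068). Hydin was at 9.21, 9.39 and 9.24 against 8.47, 8.34 and 8.54 (-0.83 ± 0.31, limma adjusted p = 0.067). The groups did not overlap for either gene, and the test takes its spread from all 11 groups.

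Dnah6 and Rsph4a followed, at -0.80 ± 0.32 and -0.72 ± 0.30 (limma adjusted p = 0.087 and 0.099). Dnah6 was at 9.39, 9.45 and 9.41 after saline and at 8.63, 8.43 and 8.79 after LPS. Rsph4a was at 9.85, 10.06 and 9.72 against 8.97, 9.05 and 9.45. Neither gene overlapped between the groups.

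Without the doubted pair, 2 of 38 fell in C57 air, Tppp3 and Dnah11, against 7.67% of all genes. Tppp3 was at 12.03, 11.98 and 12.01 after saline and at 11.10, 11.43 and 11.67 after LPS (-0.61, limma adjusted p = 0.015 without the pair). Dnah11 was at 7.81, 8.02 and 7.90 against 7.07, 7.23 and 7.38 (-0.69, limma adjusted p = 0.043 without the pair). When only the compared groups entered the fit, 22 of 38 fell, against 7.16% of all genes. With array weights, which let noisier arrays count less, 20 fell, against 23.3% of all genes. Foxj1 was at 8.74, 8.92 and 8.70 against 8.58, 8.49 and 8.85 (-0.15 ± 0.22, limma adjusted p = 0.67). Its groups overlapped, and among the other members so did those of Ropn1l.

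After smoke, the C57 comparison of LPS with saline holds both doubted arrays, and 0 of 38 members and 0% of all genes passed by limma. The members' median was -0.21, 0 of 38 had an unadjusted p under 0.05, and Dynlrb2, a dynein light chain, had the lowest value at -0.47 ± 0.33 (limma adjusted p = 0.65). Counts at an unadjusted p under 0.05 given without a share of all genes, here and below, cannot be set against all genes. Without the pair the median was -0.46, with 37 of 38 below 0, and 1 member fell against 9.79% of all genes. That member was Tppp3 (-0.81, limma adjusted p = 0.0094), at 12.16 and 12.03 after saline and 11.36 and 11.21 after LPS on the 4 arrays that remain.

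**Figure D4:**
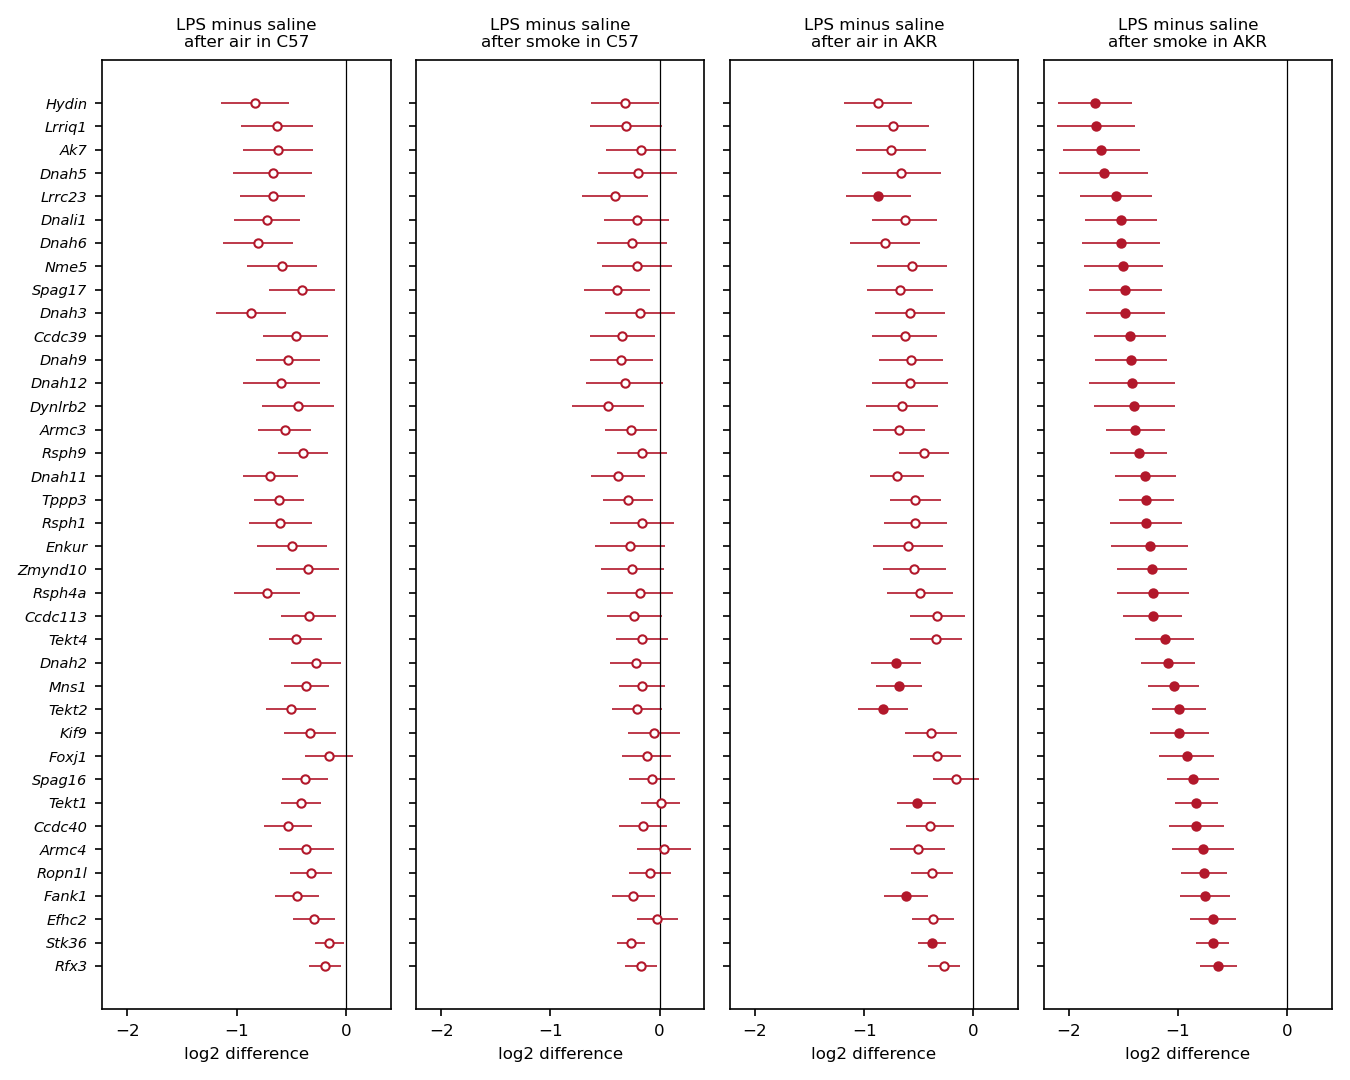
Log2 difference of LPS minus saline for each of the 38 genes (rows) in each strain after air and after smoke, with standard errors from the limma fit as bars; filled points passed at an adjusted p under 0.05. After smoke in AKR all 38 points are filled and lie between -1.76 and -0.63, after air in AKR 7 are filled, and in C57 0 are.

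Whether the response to LPS differed between strains was tested as an interaction. After air, the difference of differences (AKR minus C57) had a median of -0.07 over the members, and 0 of 38 passed by limma, where 1.14% of all genes did. The number with an unadjusted p under 0.05 was also 0, and leaving out single arrays gave medians from -0.29 to 0.21. After smoke the median was -0.99, and 34 of 38 had a value below 0 at an unadjusted p under 0.05, against 7.55% of all genes. None of the 38 passed the adjustment (limma, against 1.82% of all genes), and the lowest adjusted p was 0.075, for Rsph9 (-1.20 ± 0.35). With array weights 24 passed, all with a value below 0, against 5.66% of all genes. The doubted C57 arrays enter this test. Without them the median was -0.78 and 0 of 38 passed by limma, where 0.143% of all genes passed as lower and 0.775% as higher. The counts of 34 and 24 include the doubted arrays and are not given without them.

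Smoke was set against air within the saline arrays. Here 0 of 38 passed by limma in C57 (0% of all genes; median -0.19, and -0.10 without the doubted pair) or in AKR (0.034% of all genes; median -0.03). The number with an unadjusted p under 0.05 was 0 in each strain. In AKR the lowest value was that of Tekt2, at 7.99, 8.19 and 8.39 after air and 8.07, 7.60 and 7.5 after smoke (-0.47 ± 0.23, limma adjusted p = 0.78). In C57 the lowest value was that of Dnah3, at 10.68, 10.90 and 10.78 after air and 10.10, 10.79 and 9.93 after smoke (-0.51 ± 0.32, limma adjusted p = 0.87). The value of 9.93 is from the doubted array, without the pair the difference was -0.34 ± 0.36, and with all probe sets of the gene averaged it was -0.17. The strain by smoke interaction passed for 0 of 38 and 0% of all genes by limma, with 0 unadjusted and a median of 0.14 (0.04 without the pair).

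Among mice given LPS, AKR arrays after smoke were set against AKR arrays after air. All 38 members had a value below 0 (median -0.75), 29 did so at an unadjusted p under 0.05, against 4.85% of all genes, and 0 passed by limma, where 0.0068% of all genes did. The groups did not overlap in the lower direction for 17 of 38, against 11.1% of all genes. Hydin had the lowest value, at 9.36, 8.13 and 9.09 after air and 7.94 and 7.59 after smoke (-1.10 ± 0.34, limma adjusted p = 0.18), and the lowest air array still lay above both smoke arrays. Without AKR air with LPS 2, 13 of 38 fell, against 1.07% of all genes. With array weights 31 fell, against 5.6%, and without the doubted C57 pair 1 did, against 0.326%. In C57 the same comparison had a median of 0.08, with 0 of 38 and 0% of all genes passing by limma and 0 unadjusted, and -0.05 without the doubted pair. The smoke by LPS interaction passed for 0 of 38 and 0% of all genes in either strain, with a median of -0.70 in AKR, where 5 were below 0 at an unadjusted p under 0.05, against 2.29% of all genes. In C57 the interaction's median was 0.29, and 0.06 without the pair, with 0 unadjusted.

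Instillation of saline was set against no instillation. In AKR mice the group mean after air and saline lay above that in room air alone for 3 weeks in all 38 members, with a median difference of 0.67 against -0.04 over all genes, and of 0.38 without AKR air with saline 3. By limma 0 of 38 passed, where 0.687% of all genes did. At an unadjusted p under 0.05, 27 were higher, against 5.8% of all genes, and 24 had groups that did not overlap in the higher direction, against 14.5% of all genes. Mns1 was at 7.48 and 7.26 in room air alone and at 7.96, 7.87 and 8.86 after air and saline (0.86 ± 0.23, limma adjusted p = 0.08). Dnah12 was at 9.41 and 8.78 against 10.03, 9.50 and 10.83 (1.02 ± 0.39, limma adjusted p = 0.18). Other lists differed beside the members. The mean level of heart muscle markers was -0.22 in room air alone and 0.85 after air and saline (11 of 11 genes higher on average), and that of club cell markers -0.02 and 0.42 (10 of 10 higher). Endothelial markers were at 0.21 and -0.31 and alveolar type 1 markers at 0.19 and -0.33, each with 10 of 10 genes lower on average. By limma 0 genes of these lists passed, and their part in the members' difference was not tested. In C57 the only reference without instillation is titled 6 weeks while the saline arrays are titled 3 weeks, so time differs as well as instillation. There the median was -0.16, with 0 of 38 passing by limma against 0.0136% of all genes, and 0 of 38 with an unadjusted p under 0.05.

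Room air alone then took the place of saline as the reference, a comparison added after the data were seen. The medians of the strains stood in another order after air and lay close together after smoke. In AKR after air, LPS arrays were then no lower: the median was 0.13, 13 of 38 lay below 0 and 0 fell by limma, where 10.3% of all genes did. In AKR after smoke, all 38 lay below 0 with a median of -0.54, and 3 fell, where 8.11% of all genes did. This count was 5 without the doubted pair (11.2% of all genes). In C57 after air, all 38 lay below 0 with a median of -0.62, and 11 fell, against 7.75% of all genes. In C57 after smoke the median was -0.58 and 0 fell (2.52% of all genes), and without the pair it was -0.71 and 10 fell (13.2% of all genes). The C57 reference differs from the LPS arrays in titled time too. The median of the strain by LPS difference was 0.79 after air and 0.01 after smoke on this reference (0.14 after smoke without the pair), and 0 of 38 passed by limma in either (0.741% and 0.0408% of all genes).

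The strains themselves were compared in room air for 6 weeks, where both groups belong to the same set of arrays. The members had a median of -0.28 (AKR minus C57), and 0 of 38 passed by limma, where 2.69% of all genes did. With array weights 17 were lower in AKR, against 8.15% of all genes. The median was -0.10 without AKR room air 6 weeks 3, -0.15 without C57 room air 6 weeks 3 and -0.52 without C57 room air 6 weeks 1. Rsph4a was at 9.59, 10.36 and 10.40 in C57 and 9.54, 9.78 and 8.95 in AKR (-0.69 ± 0.30, limma adjusted p = 0.33). Tekt4 was at 8.51, 9.04 and 9.11 in C57 and 8.45, 8.65 and 7.88 in AKR (-0.56 ± 0.24, limma adjusted p = 0.32). Both genes overlapped between the strains. After air and saline, where strain and set of arrays cannot be told apart, 10 of 38 were higher in AKR (limma, 7.22% of all genes) with a median of 0.46 against -0.16 over all genes, and with the array medians set equal 15 were (16.9% of all genes), with a median of 0.65. Without AKR air with saline 3 the count was 1 (6.04% of all genes) and the median 0.17. Without any other single array of these groups the count was 3 to 6, except 14 without AKR air with saline 2. The shares of all genes for these omissions are not given, so these counts cannot be set against all genes.

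Of those 10, Mns1 differed most, at 7.17, 7.45 and 7.22 in C57 and 7.96, 7.87 and 8.86 in AKR (0.95 ± 0.21, limma adjusted p = 0.001). The others were Dnah12, Enkur, Dnah6, Armc3, Dnah9, Rsph1, Foxj1, Tekt1 and Stk36. Foxj1 was at 8.74, 8.92 and 8.70 in C57 and at 9.29, 9.32 and 9.77 in AKR (0.67 ± 0.22, limma adjusted p = 0.021). Enkur was at 7.76, 8.13 and 7.83 in C57 and at 8.68, 8.3 and 9.5 in AKR (0.92 ± 0.32, limma adjusted p = 0.025). The strains did not overlap for these 3 genes or for the others of the 10. These genes were picked by the test on the same arrays, so their lack of overlap adds no support. The share of all genes without overlap is not given here.

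Other cilia genes lay in the same direction after smoke and LPS in AKR. Against the 14.6% of all genes that fell, of 67 tested genes in a further list of axoneme genes 60 fell and 0 rose, with a median of -1.20; the lowest was Cfap43, needed for cilium beating, at 7.77 against 9.72 on average (-1.96 ± 0.36, limma adjusted p = 0.00034). Of 20 further dynein arm and arm assembly genes, 15 fell and 0 rose (median -0.79), among them the outer arm intermediate chains Dnaic1 (-1.21) and Dnaic2 (-1.10). Of 31 genes of intraflagellar transport, which builds motile and immotile cilia alike, and of the primary cilium, 22 fell and 0 rose (median -0.55), with Ift81 at -1.13 and the retrograde motor Dync2h1 at -1.08.

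Of 14 regulators of the motile cilia programme and of centriole multiplication, 6 fell, against 14.6% of all genes, and 1 rose after smoke and LPS in AKR. Those that fell were Myb (-1.74), Gmnc (-1.30), Trp73 (-0.71), Deup1 (-0.71), Ccno (-0.59) and Rfx2 (-0.33). Myb, Gmnc and Trp73 act early in the choice of the multiciliated fate, and Deup1 and Ccno in making many centrioles. E2f4, a cell cycle factor that also serves centriole multiplication, rose by 0.34.

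Markers of other cells did not all move with the members in this comparison. Of all genes, 14.6% fell, and 18.6% rose in the fit without the doubted C57 pair. Where 1 gene of a list fell or rose, that is no result about the list. Of 10 club cell markers 8 fell (median -1.13), with Scgb3a2 at -2.52 and Pon1 at -2.0, and their mean level ran from 0.31 to 0.85 on the saline arrays and was -0.51 and -0.84 after LPS. The 11 heart muscle markers had a median of -1.03, of which 1 fell, and their mean level ran from -0.35 to 0.93 on the saline arrays and was 0.20 and -1.18 after LPS. Alveolar type 2 markers (4 rose and 1 fell of 11, median 0.02) and alveolar type 1 markers (1 rose of 10, median 0.22) had medians at or above 0. Markers of epithelium in general fell in 4 of 9 (median -0.33), and their mean level ran from 0.14 to 0.69 on the saline arrays and was 0.12 and 0.13 after LPS. Of 6 basal cell markers 1 fell (median -0.11), with a mean level from 0.23 to 0.93 on the saline arrays and of -0.02 and 0.35 after LPS. Goblet and mucous cell markers overlapped between the groups, with a mean level from -0.53 to 0.9 on the saline arrays and from -0.5 to 0.64 after LPS. Neutrophil markers rose in 11 of 13 (median 3.26). The part of cell composition in the members' fall was not tested.

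The same lists after air and LPS gave fewer genes that fell. In AKR, 7 of 67 axoneme genes, 2 of 20 dynein genes, 7 of 31 transport genes and 0 of 14 regulators fell, beside 6 of 10 club cell markers, where 7.41% of all genes fell. The shares of axoneme and dynein genes lie near that of all genes. In C57, 1 of 67 axoneme genes (Iqcd, -0.39), 0 of 20 dynein genes and 1 of 31 transport genes (Bbs2, -0.63) fell, beside 4 of 10 club cell markers, where 4.3% of all genes fell. Club cell markers thus had a larger share of genes that fell after air than the 38 members in both strains, and the difference in shares was not tested. Of the regulators, E2f4 rose by 0.39 in C57 after air and LPS.

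**Figure D5:**
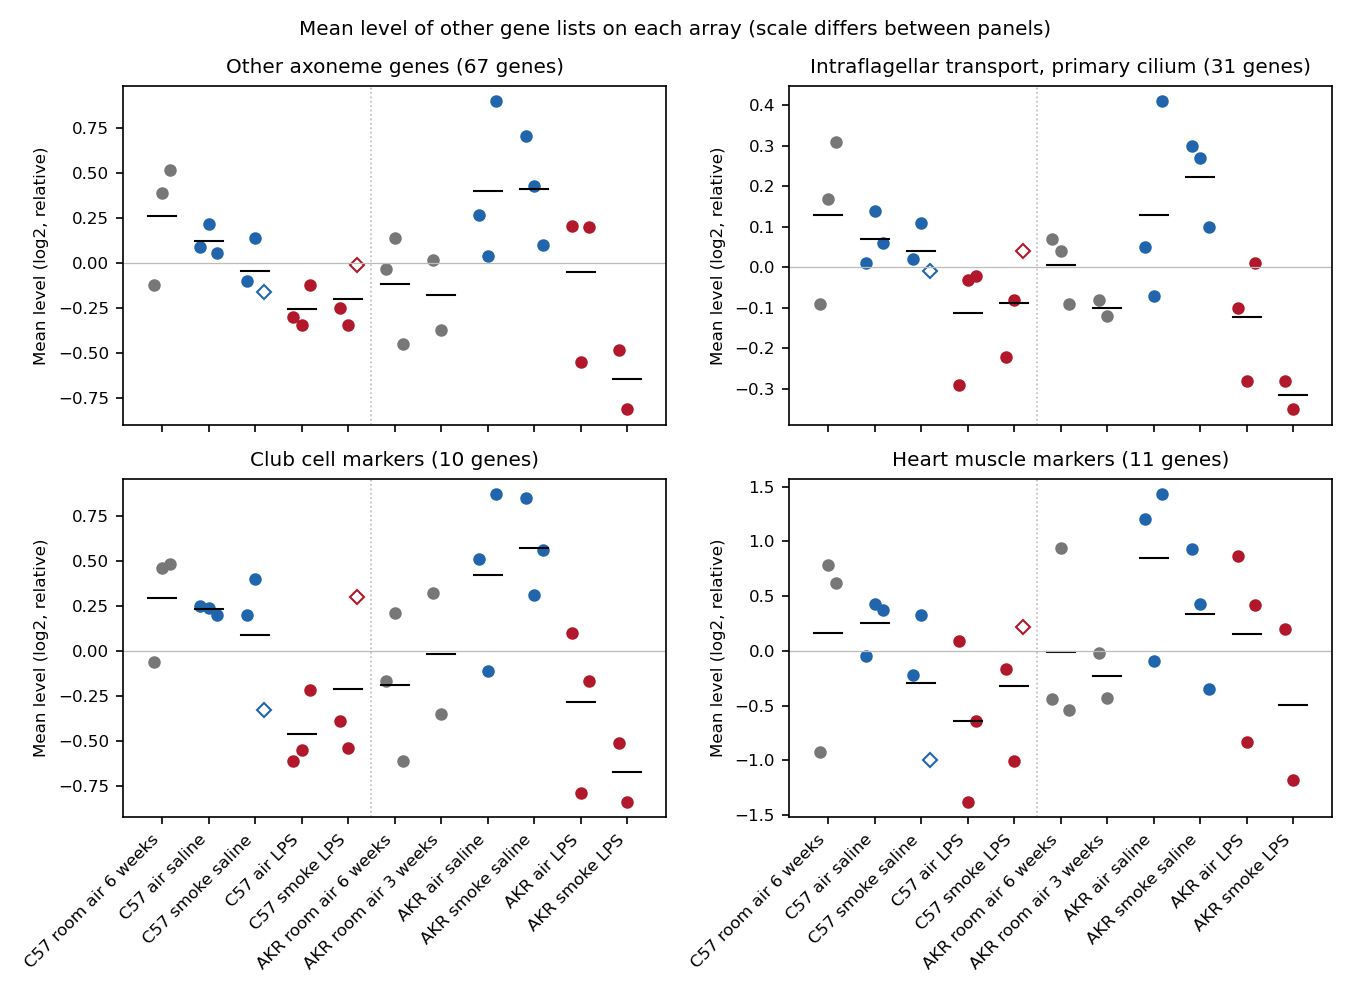
Mean level on each array (y axis, log2 relative to each gene's mean over all arrays, scale differs between panels) of further axoneme genes, genes of intraflagellar transport and the primary cilium, club cell markers and heart muscle markers, by group (x axis). Points are arrays, lines group means, open diamonds the doubted C57 pair. Club cell markers lie at -0.51 and -0.84 after smoke and LPS in AKR, against 0.31 to 0.85 after smoke and saline.

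Strain differences in room air for 6 weeks appeared in a few genes of these lists, where 2.69% of all genes passed by limma. These single genes are no result about the lists in particular. Dnah8, a dynein heavy chain, averaged 7.89 in AKR and 6.42 in C57 (1.47 ± 0.15, limma adjusted p = 0.00000087). Nme9, a thioredoxin domain protein of the dynein arm list, averaged 6.43 in AKR and 8.46 in C57 (-2.04 ± 0.22, limma adjusted p = 0.0000023). Cfap53 (-0.69), Ift22 (-0.70) and Bbs7 (-0.50) were also lower in AKR.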

How the data were processed

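Per the labels, biotin-labelled cRNA from total lung RNA was handled by the standard Affymetrix protocol. The deposited values are log2 intensities for 35556 probe sets, made by the authors with RMA per the submitters' processing notes, with version and settings not given in the sources used here. GEO's platform annotation lists 23410 of the probe sets; 21789 carry 1 gene symbol, 1621 several and 12146 are unnamed. Symbols were updated through Entrez identifiers (99.6% in RefSeq). Arrays give no read depth, and 2 or 3 arrays a group limit the precision.

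One limma fit of 11 group means to 31 arrays (20 residual degrees of freedom) gave all contrasts, moderated by eBayes and adjusted after Benjamini-Hochberg for 14705 genes; tests are two-sided. Where nothing but the titles calls arrays separate mice, p-values measure the spread between arrays. AKR mice in room air for 3 weeks, and C57 mice in room air for 6 weeks, are the references without instillation. The fit was tested on simulated data. Columns with identical values numbered 0.

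The members and lists were chosen with earlier results of these data known. Named are the members, with array values for Foxj1 and Rfx3 and from among the 4 lowest, the 4 highest and those that passed in a comparison; from other lists, those that passed or up to 4. A few further members have array values to show a role; they were chosen after their values were seen. Motifs were searched in RefSeq promoter windows. Same-numbered arrays did not deviate together on average (mean r 0.01 over 146 pairs), and the main fit pairs no arrays. Single pairs varied, with a lowest r of -0.77 and 51 pairs above 0.1. The mean therefore cannot exclude pairing between particular groups. Tools were limma 3.58.1 in R 4.3.3, with data.table (1.17.8) and statmod 1.5.0.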

Additional observations from a re-analysis of the deposited data

How the results depend on the processing

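Precision is limited by 2 or 3 arrays a group, the doubted C57 pair and the sets of arrays, and no member's difference that passed changed sign except on the room air reference, where Mns1 was at 0.18 and Tekt1 at 0.13 for air and LPS in AKR. The fall of 38 members after smoke and LPS in AKR had counts of 37 to 38 under the other normalizations and fits, with no filter, with all probe sets averaged and without the doubted pair, and of 33 under the stricter filter, which tested 33 of them. Counts that moved were, for air and LPS in C57, 22 with only the compared groups, 20 with array weights, 2 without the doubted pair and 11 with room air alone as the reference. For smoke and LPS in C57 they were 4 with array weights and 1 without the pair, and the median was -0.58 on the room air reference. For air and LPS in AKR they were 4 with no filter on low values, 0 with only the compared groups, 0 with array weights, 4 with replicate numbers as a block, 11 without the doubted pair, and 0 with a median of 0.13 on the room air reference. For smoke and LPS in AKR the room air reference gave 3 and a median of -0.54. For smoke against air among AKR mice given LPS, array weights gave 31 and leaving out the pair 1. Array weights also gave 17 for AKR against C57 in room air, 4 for it after air and saline, 24 for the strain by LPS interaction after smoke, and 1 with a median of -1.08 for the smoke by LPS interaction in AKR. The room air reference gave medians of 0.79 after air and 0.01 after smoke for the strain by LPS interaction. The fit of the array weights stopped before its tolerance was reached. The causes were not tested. Array weights also raised the share of all genes that fell for air and LPS in C57, from 4.3% to 23.3%. Where no share of all genes is given, here or above, a count in this section cannot be set against all genes. Such a count is no result about the members in particular.

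Leaving out each array in turn gave 0 to 11 members for air and LPS in AKR (median -0.82 to -0.25), 19 to 38 for smoke and LPS in AKR, 0 to 13 for smoke against air among AKR mice given LPS, 1 to 14 for AKR against C57 after air and saline, 0 to 3 for the strain by LPS interaction after smoke and 0 to 1 for saline against room air in AKR. The replicate block changed no other count by more than 1.5 times. Deviations from the group mean were correlated between arrays of different groups and averaged by replicate number, which runs from 1 to 3. For 13 of 31 arrays the average was highest for their own number.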
